A study of Dicentrarchus labrax with 23 samples.

Results

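Anterior intestine (AI) was compared with middle intestine (MI) in European sea bass (Dicentrarchus labrax), over the arrays that the sample labels assign to these segments. The comparison holds 15 of the 23 arrays analysed here, 8 of AI and 7 of MI. The 8 arrays of posterior intestine (PI) entered no test and are given only as levels beside AI and MI. The AI samples were cut directly behind the pyloric caeca, those of MI halfway along the gut, and those of PI at its end with the rectum. The fish were reared on a commercial diet and fasted overnight before sampling, with no treatment. Each array was hybridised with Cy3-labelled RNA of 1 intestinal segment, and neither the labels nor the methods tie a replicate number to a fish. Arrays are named by segment and replicate number, from AI1 to AI8 and from MI1 to MI7. By the paper's methods the RNA came from individual fish, 8 for each segment, while 7 MI arrays were analysed here. The p-values therefore measure the spread between the arrays of a segment, each from 1 fish. The tissue was used whole, so fewer cells of a type and less RNA per cell cannot be told apart in any value below.

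The first stretch of a fish intestine behind the stomach and its caeca receives pancreatic juice and bile and takes up most of the lipid, packed with apolipoproteins into lipoproteins. Further back the epithelium turns to the uptake of bile acids, vitamin B12 and intact protein, tasks that the ileum shares among them in mammals. Endocrine cells that make different hormones, a layer of mucus with lectins, a wall of smooth muscle and matrix, and immune cells lie along the whole length. Position along the gut is marked by homeobox genes, of which Hox members of higher number are usually expressed further back.

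The custom Agilent array carries 14147 probes for assembled sea bass transcripts, and 12605 of them exceeded the local background clearly (the scanner software's mark for well above background) on 7 or more of the 15 arrays and were tested. Values are log2 signals after subtraction of the 75th percentile of each array, so 0 is that percentile. Names were available for 3449 of the probes tested, all from the study's list of genes that separate AI and MI from PI, so that the named probes are not a random draw of the array. Between 82.7% and 92.6% of the probes on an array were well above background, and the 75th percentile of the signal was 388 to 974 intensity units. MI7 had the lowest percentile and MI6 the highest, while AI2 had 642 units and 88.0% of its probes well above background. Apolipoprotein A-IV (L12_86775), a marker of absorptive enterocytes, was well above background on all 15 arrays, with log2 signals between 8.19 and 10.19.

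No probe was called between AI and MI, that is, none of the 12605 had a Benjamini-Hochberg adjusted p under 0.05 in limma (0% called). The lowest adjusted p was 0.0919. At an unadjusted p under 0.05 there were 1609 probes (12.8%), of which 790 (6.27%) were higher in AI and 819 (6.5%) higher in MI, and the test named in the study's methods gave 1580 and also called none after adjustment. A difference of at least 2-fold in the means, whatever its p, was seen for 351 probes, 160 higher in AI and 191 higher in MI. The median difference over all probes tested was 0.02.

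The count of calls changed when either of 2 arrays was left out. When each array was left out in turn, 601 probes (4.77%) were called without AI2, 240 higher in AI (1.9%) and 361 higher in MI (2.86%), and 292 of them differed at least 2-fold. Of the 601, 308 were named, which is 8.93% of the named probes. Without MI7 there were 40 calls (0.317%), 24 higher in AI and 16 higher in MI. Leaving out any of the other 13 arrays gave 0 calls. Of the 40 probes called without MI7, 37 were also called without AI2. With all 15 arrays kept and each array weighted by its agreement with the fit, 480 probes were called (3.81%), 190 higher in AI and 290 higher in MI, and 417 of them were among those called without AI2. The lowest weights were those of MI7 (0.50), AI2 (0.52) and AI3 (0.57), and the highest that of MI2 (2.18). AI2 and MI7 were set apart on these same signals. A p-value without either of them, here and below, shows how far a call depends on that array and is no separate support.

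**Figure D1:**
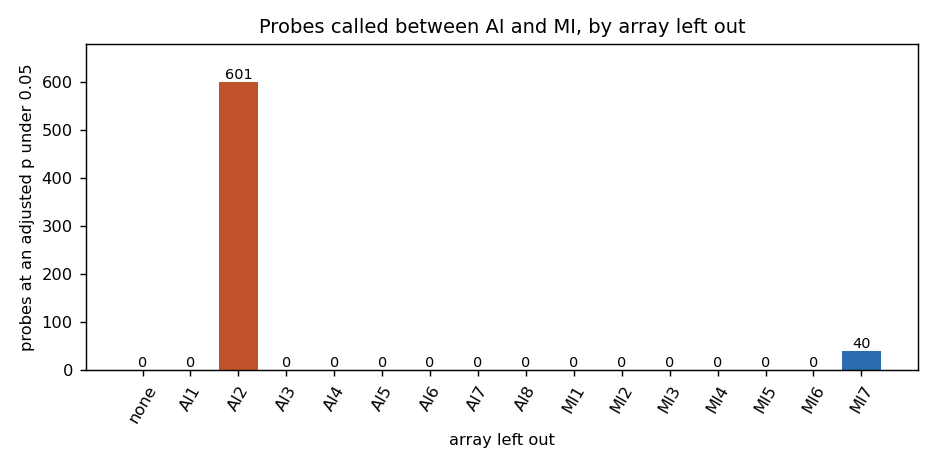
The number of probes with an adjusted p under 0.05 between AI and MI (vertical axis) is shown for all 15 arrays (none left out) and after leaving out each array in turn (horizontal axis). Only the bars for AI2 (601) and MI7 (40) are above 0.

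The position of each array between the segments was measured with the 200 probes of smallest p in a fit that did not hold that array, on a scale where 0 is the mean of the MI arrays and 1 the mean of the AI arrays, the array itself excluded. AI2 had a position of -0.14, on the MI side of the MI mean. The other 7 AI arrays lay between 0.86 and 1.40. MI7 had a position of 0.97, close to the AI mean. MI5 lay at 0.27, and the remaining 5 MI arrays between -0.26 and -0.08. AI2 was nearer the AI mean than the MI mean in 2.5% of the 200 probes, and MI7 was nearer the MI mean in 13.5%. In the other AI arrays 61.5% to 88.0% of the probes were nearer their own mean, and in the MI arrays other than MI5 and MI7 72.5% to 85.5%. MI5 was nearer its own mean in 54.5%. The positions of AI2 and MI7 ranged from -0.23 to -0.13 and from 0.94 to 0.99 with 50 or 500 probes, quantile normalization or another background correction.

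**Figure D2:**
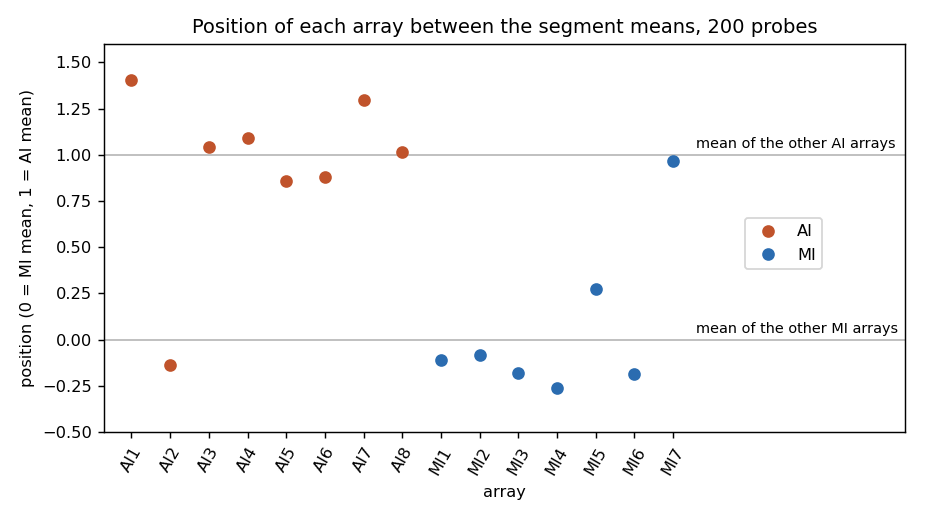
Position of each of the 15 arrays (horizontal axis) between the mean of the MI arrays (0) and the mean of the AI arrays (1), from the 200 probes of smallest p in the fit without that array. AI2 lies at -0.14 among the MI arrays and MI7 at 0.97 among the AI arrays, and MI5 lies between the segments at 0.27.

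Measures that used no choice of probes placed these arrays likewise. Over the 12499 probes with a value on all 15 arrays, AI2 correlated at 0.985 with the mean of the MI arrays and at 0.956 with that of the other AI arrays. MI7 correlated at 0.976 with the AI mean and at 0.962 with the mean of the other MI arrays. These coefficients are across probes and describe the arrays. On the first principal component, which held 30.9% of the variance, the other AI arrays lay between 21.8 and 40.6, and AI2 at -55.5. The MI arrays other than MI7 lay between -51.7 and -10.1, and MI7 at 26.5. After the mean of each probe was removed, the array closest to AI2 was MI2 (r = 0.519), and that closest to MI7 was AI8 (r = 0.609).

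By direction of the probes, AI2 had a position of 0.09 over those of its 200 probes that were higher in AI and of -0.39 over those higher in MI, so it lay past the MI mean over those higher in MI. Of the 601 probes called without AI2, a choice in which it had no part, it lay past the MI mean in 188 of the 240 higher in AI and in 296 of the 361 higher in MI. It was nearer the AI mean in 14 and 13, and within the range of the 7 MI arrays in 162 and 233. The MI mean used here includes MI7, which lay close to AI. Lying past it does not by itself set AI2 beyond the MI arrays. Over the probes higher in MI, the 5 MI arrays other than MI5 and MI7 had positions of -0.25 (MI6) to 0.07 (MI2). AI2 had the lowest value there. Over the probes higher in AI these 5 had positions of -0.34 (MI4) to -0.10 (MI1), all below AI2. Each position comes from the fit without that array, so the probes differ between arrays. MI7 had a position of 1.02 over the probes higher in AI and of 0.86 over those higher in MI. Of the 40 probes called without MI7 it lay past the AI mean in 18 of the 24 higher in AI and in 5 of the 16 higher in MI. It was nearer the MI mean in 1 and 3, and the AI mean used here includes AI2. MI5 had values of 0.19 and 0.40. AI2 also had the second highest correlation with the mean of the PI arrays among the 15 arrays, 0.941, after MI3 with 0.944, and MI7 and AI1 had the lowest, 0.892 each. Slide, scan and signal strength of AI2 were within the range of the other AI arrays, and for MI7 the 75th percentile of the signal was the lowest of all. Why these arrays departed was not tested.

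The 12 named genes with the smallest p that were higher in AI had adjusted p values of 0.0919 to 0.176 and differences of 0.81 to 9.75 on the log2 scale. All 12 were called without AI2 and 9 without MI7. AI2 was the lowest AI array in 10 of the 12, and MI7 the highest MI array in 10. In none of them were all AI arrays above all MI arrays, and without AI2 this held for 5, beside 54 of all 12605 probes (0.428%). Since these genes were chosen by their p, these counts only describe them.

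Carcinoembryonic antigen-related cell adhesion molecule 5 (L1_86196), which in mammals is a glycoprotein of the apical surface of the epithelium, had log2 signals of -3.23 to 5.23 (median 0.79) in AI and of -9.29 to -1.52 (median -7.99) in MI. AI2 was the lowest AI array, and all 8 AI arrays lay above 6 of the 7 MI arrays, MI7 (-1.52) being the only one to overlap and MI3 (-3.42) the next highest of MI. The mean was 1.12 ± 2.54 in AI (SD, n = 8) and -6.61 ± 2.93 in MI (SD, n = 7), a difference of 7.73 (SE 1.28, adjusted p = 0.0919). Only 2 of the 7 MI arrays were well above background for it. It passed the filter on dim probes through its 8 AI arrays, and the size of its difference depends on MI signals at background. Levels in PI were -9.59 to -7.02.

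Intelectin-2 (L1_88128), a lectin of a family that binds microbial sugars, had -2.15 to 6.14 in AI (median 1.72) and -9.32 to 2.07 in MI (median -8.19). MI7 was the only MI array well above background, and the 6 others were at -7.53 or below. It passed the filter on dim probes through its 8 AI arrays, and with 6 of 7 MI values at background its difference of 8.99 (SE 1.67, adjusted p = 0.0919) depends on them, being 7.56 (adjusted p = 0.0964) with dim signals set to the lowest signal well above background. The largest difference was that of an uncharacterized protein (LOC100002243, L1_41991), with 0.43 to 7.96 in AI (median 6.57) and -8.21 to 6.90 in MI (median -6.05). It was well above background on all 8 AI arrays and on 5 of 7 MI arrays, so the size of its difference depends in part on MI signals at background. AI2 (0.43) and MI7 (6.90) were the outermost arrays of their segments, and the difference was 9.75 (SE 1.85, adjusted p = 0.0919, and 0.000481 without MI7). Alkaline phosphatase (L1_77244), a phosphatase named here after its tissue-nonspecific isozyme, showed the same arrangement. Its signals were 5.04 to 6.68 in the 7 AI arrays other than AI2 and -0.89 in AI2, against -8.04 to -0.35 in the 6 MI arrays other than MI7 and 5.81 in MI7. Its adjusted p was 0.138, and 0.00784 without AI2.

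Complement genes followed. Complement factor B (L12_88845), a protease of the alternative pathway, had -2.59 to 3.62 in AI (median 1.27) and -4.34 to 0.53 in MI (median -2.65). Without AI2 the lowest AI array was AI6 (0.75), above MI7 as the highest MI array. The difference was 3.99 (SE 0.88, adjusted p = 0.166, and 0.00614 without AI2). Factor B/C2 (L3_56407), a related probe, had -5.45 to 0.07 in AI (median -2.46) and -7.35 to -3.23 in MI (median -6.52), with 3 of 7 MI arrays well above background. It passed the filter through its AI arrays. Beta-2-glycoprotein 1-like (L1_21520), a phospholipid-binding plasma protein, had -7.10 to -4.25 in AI (median -4.93) and -8.56 to -4.72 in MI (median -7.90), where only MI7 was well above background, so that it passed the filter through AI.

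Several enzymes were among the 12. Acetyl-coenzyme A synthetase 2-like (L12_73999), which activates acetate in mitochondria, had the second smallest p of the named genes higher in AI, with -1.83 to -0.38 in AI (median -0.77) and -3.24 to -1.72 in MI (median -2.37). Here AI2 (-0.78) lay among the AI arrays, and only AI4 (-1.83) was below an MI array, MI7. The difference was 1.52 (SE 0.26, adjusted p = 0.0919), and in PI the level was -0.36 to 0.27. Membrane primary amine oxidase (L12_89917) had 6.06 to 7.96 in AI (median 7.47) and 5.84 to 7.17 in MI (median 6.26). AI2 was the AI array within the range of MI, and MI7 was the highest of MI. Its difference was 1.03 (SE 0.25, adjusted p = 0.176). Glutamate decarboxylase 1 (L1_33915), which makes the transmitter GABA, was well above background on 7 of 8 AI arrays and on no MI array. With MI signals set no lower than the lowest signal well above background, the mean of all 8 AI arrays was 1.83-fold higher. That mean holds an AI array not well above background, so 1.83 is no strict lower bound. The gene passed the filter only through its AI arrays. Its adjusted p of 0.166 therefore comes from a probe that the filter kept for its level in AI. Protein MAATS1 (L1_35081), known from cilia, had -3.59 to -1.65 in AI (median -2.40) and -4.19 to -2.99 in MI (median -3.69).

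**Figure D3:**
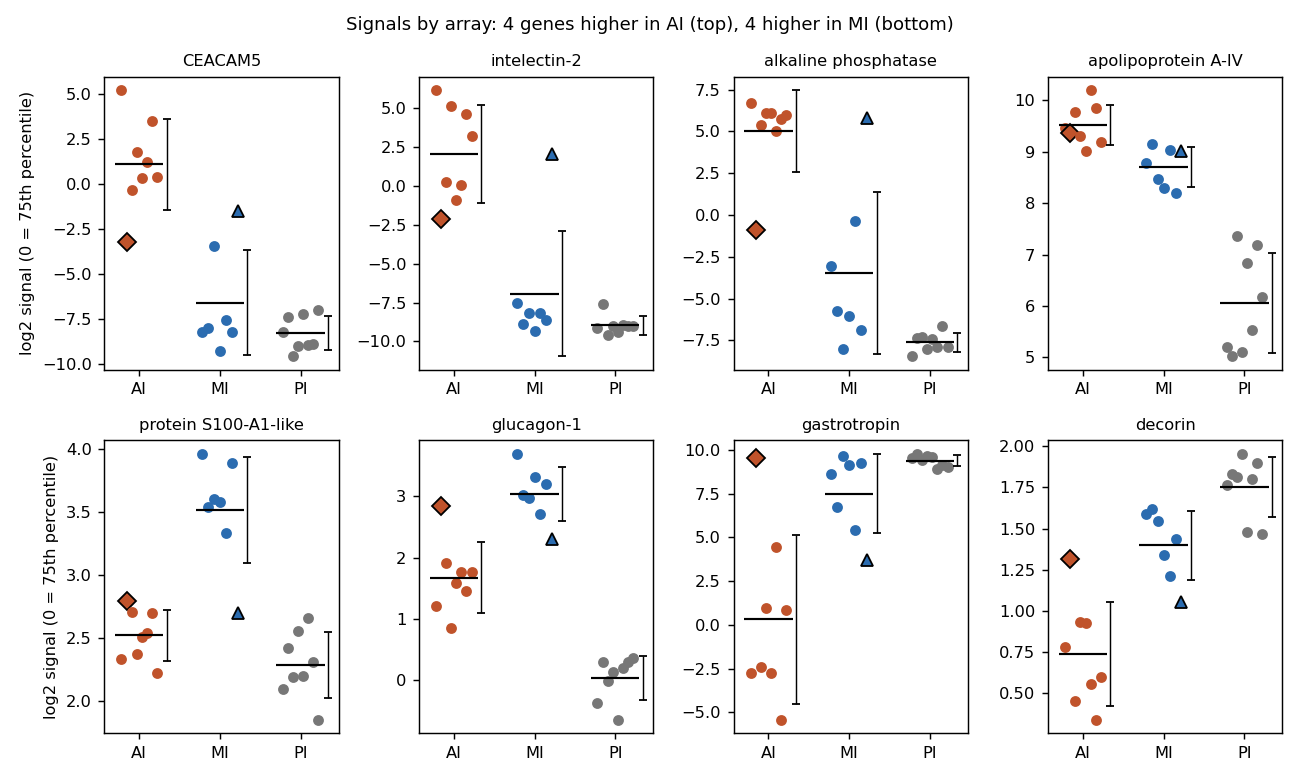
Log2 signals relative to the 75th percentile (vertical axes) of 4 genes higher in AI (top) and 4 higher in MI (bottom) on the arrays of AI, MI and PI, with the mean (line) and SD (bar) of each segment; the diamond marks AI2 and the triangle MI7. In alkaline phosphatase MI7 (5.81) lies among the AI arrays, and in gastrotropin AI2 (9.56) lies with the MI and PI arrays, while in apolipoprotein A-IV AI2 (9.36) stays within AI.

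Among the named genes higher in MI, the 12 with the smallest p had adjusted p values of 0.0919 to 0.166 and differences of 0.61 to 3.35 in size. All 12 were called without AI2, 4 without MI7. AI2 was the highest AI array in 10 of the 12 and MI7 the lowest MI array in 7. In none did the segments stand apart on all arrays, and without AI2 they did so in 8, beside 73 of all 12605 probes (0.579%) with every MI array above every AI array. These genes too were chosen by their p.

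Protein S100-A1-like (L12_48239), which binds calcium, had 2.22 to 2.80 in AI (median 2.52) and 2.69 to 3.96 in MI (median 3.58). Only MI7 (2.69) reached into the range of AI, where AI2 (2.80), AI3 and AI7 (2.70 each) lay just above it. The mean was 2.52 ± 0.20 in AI (SD, n = 8) and 3.51 ± 0.42 in MI (SD, n = 7), and the difference was -0.99 (SE 0.17, adjusted p = 0.0919). Levels in PI were 1.85 to 2.66. Glucagon-1 (L12_71059), the precursor of glucagon and its related gut peptides, had 0.85 to 2.84 in AI (median 1.67) and 2.31 to 3.70 in MI (median 3.02). AI2 (2.84) was the only AI array above MI7 (2.31), the lowest of MI. The difference was -1.36 (SE 0.26, adjusted p = 0.0919, and 0.00591 without AI2), and PI was lower than both at -0.65 to 0.36.

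Sulfate transporter (L2_63919) had -2.27 to -0.60 in AI (median -1.57) and -0.65 to 1.13 in MI (median -0.31), a difference of -1.46 (SE 0.28). AI2 (-0.60) overlapped only with MI7 (-0.65), and MI3 (1.13) was the highest. Secreted frizzled-related protein 5 (L1_22618), an antagonist of Wnt ligands, had -8.68 to -3.74 in AI (median -6.85) and -5.00 to -2.74 in MI (median -4.14), and 3 of 8 AI arrays were well above background. AI2 (-3.74) was the single AI array within MI. The gene passed the filter through its MI arrays.

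Alcohol dehydrogenase A (L12_80932) had -8.66 to -3.72 in AI (median -6.70), with 4 of 8 arrays well above background, and -5.37 to -2.48 in MI (median -3.89), and it was higher still in PI (-0.85 to 0.62). It too passed the filter through its MI arrays. Phospholipase B1 (L12_88630), a brush border enzyme that hydrolyses phospholipids, had -3.10 to 2.73 in AI (median -0.71) and 0.51 to 4.09 in MI (median 2.81), with lower levels in PI (-4.33 to -1.42). Its difference was -3.35 (SE 0.78, adjusted p = 0.166), AI2 was the highest of AI and MI7 the lowest of MI. Tryptophan 5-hydroxylase 2 (L12_85446), an enzyme of serotonin synthesis, had -4.30 to -3.01 in AI (median -3.58) and -3.12 to -2.21 in MI (median -2.65). Both AI2 (-3.69) and MI7 (-2.62) lay with their own segment there, and the overlap came from AI6 (-3.04), AI8 (-3.01) and MI3 (-3.12). Serine/threonine-protein kinase 32A-like (L2_58463) had -5.25 to -4.51 in AI (median -4.98) and -4.70 to -4.11 in MI (median -4.25), and AI2 was at the far end of AI from MI. Fer-1-like protein 6-like (L1_61537) had -5.93 to -4.75 in AI (median -5.44) and -5.15 to -4.18 in MI (median -4.59).

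The 5 named genes with the largest differences toward MI were a bile acid-binding protein, an adhesion molecule and 3 genes of amino acid and peptide transport. Gastrotropin (L2_73008), the ileal bile acid-binding protein, had -5.42 to 9.56 in AI (median -0.78) and 3.72 to 9.67 in MI (median 8.60), beside 8.91 to 9.78 in PI. AI2 was at the level of PI, AI6 (4.45) was the next of AI, and MI7 (3.72) and MI5 (5.41) were the lowest of MI. Its mean was 0.31 ± 4.82 in AI (SD, n = 8) and 7.51 ± 2.27 in MI (SD, n = 7). The difference was -7.20 (SE 1.81, adjusted p = 0.18, with 0.00614 without AI2 and 0.0748 without MI7). Excitatory amino acid transporter 3 (L2_89236), which carries glutamate and aspartate, had a difference of -6.96 (SE 1.73, adjusted p = 0.176). Its AI arrays other than AI2 lay between -7.87 and -2.60 and AI2 at 5.52, against -2.11 (MI7), -0.65 (MI5) and 3.24 to 5.05 in the other MI arrays. Transmembrane and immunoglobulin domain-containing protein 1 (L2_79144), an adhesion molecule of epithelia, had -9.26 to 6.98 in AI (median -7.44) and -6.01 to 5.73 in MI (median 0.37). It was well above background on only 3 of 8 AI and on 6 of 7 MI arrays, so the size of its difference depends on signals at background. Collectrin (L2_64229), a partner protein of amino acid transporters, had -4.94 to -3.48 in the AI arrays other than AI2 and 4.60 in AI2, and -2.03 to 3.90 in MI (median 3.73). Solute carrier family 15 member 2 (L2_89755), a transporter of di- and tripeptides, had -7.68 to 3.22 in AI (median -6.44) and -4.70 to 2.80 in MI (median 0.83). Only 4 of 8 AI arrays were well above background for it. It passed the filter through its MI arrays, and the size of its difference depends on AI signals at background. In these 5 genes AI2 was above every MI array except for MI3 in gastrotropin, and MI7 was the lowest MI array in each of them.

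The named genes were also read by 24 lists of genes of 1 kind, drawn from the study's names. Since no member was called on all 15 arrays, members are counted at an unadjusted p under 0.05, which 6.27% of all probes tested reached in the direction of AI and 6.5% in that of MI, and 8.84% and 10.8% of the named ones. The median difference was 0.02 over all probes tested and -0.04 over the named ones. The extracellular matrix list had 10 of 25 members past that p toward MI, the cholesterol synthesis list 5 of 8 toward AI and the zinc and iron list 5 of 16 toward AI.

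**Figure D4:**
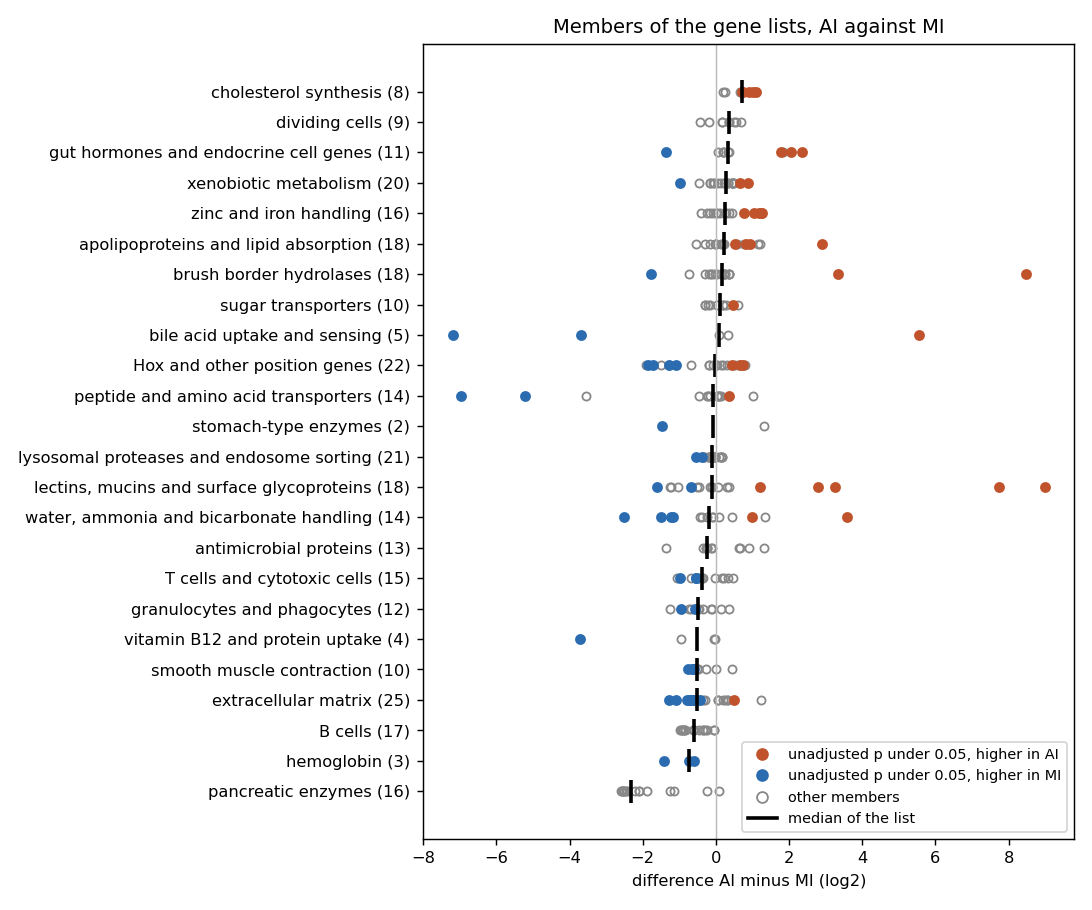
Difference AI minus MI on the log2 scale (horizontal axis) of each tested member of the 24 gene lists (rows, with the number of members tested), coloured where the unadjusted p is under 0.05, with the median of each list. The cholesterol synthesis list has the highest median (0.73) and the pancreatic enzymes the lowest (-2.32), although no pancreatic enzyme reached that p.

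Genes of lipid absorption and sterol synthesis were mostly higher in AI. Of 18 tested genes of apolipoproteins and lipid absorption, 12 were higher in AI, 4 of them at an unadjusted p under 0.05 and none in MI, with a median difference of 0.21. Apolipoprotein A-IV had 9.0 to 10.19 in AI (median 9.41) and 8.19 to 9.15 in MI (median 8.77), with AI2 (9.36) in the middle of AI. AI5, the lowest of AI, lay below MI2 (9.15), MI5 (9.03) and MI7 (9.01), and no other AI array lay below an MI array. The difference was 0.81 (SE 0.20, adjusted p = 0.176). Apolipoprotein Eb (L3_81365) had a larger one, 2.89 (SE 0.83, adjusted p = 0.212), with AI2 at -4.96 and the other AI arrays at -1.92 to 0.51, against -6.18 to -1.95 in MI. Apolipoprotein A-IV3 (L2_47644) and the large subunit of microsomal triglyceride transfer protein (L12_88997), which loads lipid onto apolipoprotein B, differed by 0.94 (SE 0.40) and 0.53 (SE 0.21), the value of AI3 being left out of the second because the scanner software marked its spot as an outlier (n = 7 for AI).

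All 8 tested genes of cholesterol synthesis had higher means in AI, with differences of 0.19 to 1.09, and 5 reached an unadjusted p under 0.05. Lathosterol oxidase (L1_52395), which introduces a double bond of the sterol ring, had -1.93 to 0.34 in AI (median -0.15) and -1.87 to -0.52 in MI (median -1.49). AI2 was the lowest array of both segments, MI5 (-0.53) and MI7 (-0.52) the highest of MI. Its difference was 1.01 (SE 0.31, adjusted p = 0.23, and 0.00973 without AI2). 7-dehydrocholesterol reductase (L12_72066), a late enzyme of the pathway, differed by 1.09 (SE 0.38). Phosphomevalonate kinase (L12_73914), an early enzyme, differed by 0.89 (SE 0.29), Delta(24)-sterol reductase (L12_88577) by 0.73 (SE 0.29) and 3-keto-steroid reductase (L1_76175) by 0.72 (SE 0.30). Without AI2, 3 of the 8 were called, beside 1.9% of all probes and 4% of the named ones called as higher in AI in that fit.

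Of 16 zinc and iron genes tested, 11 had higher means in AI and 5 in MI, with differences of -0.42 to 1.25. An unadjusted p under 0.05 was reached by 5 toward AI and by none toward MI, and 4 were called as higher in AI without AI2, beside 1.9% of all probes and 4% of the named ones. Zinc transporter ZIP4 (L1_42684), the main importer of dietary zinc, had -3.30 to -0.17 in AI (median -1.30) and -3.17 to -1.69 in MI (median -2.67). AI2 was lower than every MI array, and without it the AI arrays stood above all MI arrays. Its difference was 1.19 (SE 0.36, adjusted p = 0.218, and 0.00728 without AI2). A second probe of this name, ZIP4-like (L12_68504), differed by 1.04 (SE 0.45) and ZIP8 (L12_85588) by 1.25 (SE 0.40). Natural resistance-associated macrophage protein 2 (L12_80640), the proton-coupled importer of ferrous iron, differed by 1.23 (SE 0.35), and melanotransferrin (L12_89950), an iron-binding membrane protein, by 0.76 (SE 0.34).

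Brush border hydrolases and surface proteins did not share a direction. Of 18 hydrolases tested, alkaline phosphatase and meprin A subunit beta (L12_88973), a membrane metalloprotease, were higher in AI at an unadjusted p under 0.05, and gamma-glutamyltranspeptidase 1 (L12_89467), an enzyme of glutathione breakdown, was higher in MI. Meprin A had -0.73 to 6.81 in AI (median 6.12) and -3.72 to 6.59 in MI (median 1.70), and AI2 was the lowest of AI, MI3 the lowest and MI7 the highest of MI. Gamma-glutamyltranspeptidase 1 had 1.1 to 3.26 in the AI arrays other than AI2 and 6.28 in AI2, against 2.64 (MI7), 2.76 (MI5) and 4.19 to 5.89 in the other MI arrays. At that p, 5 of 18 lectins, mucins and surface glycoproteins were higher in AI, and 2 were higher in MI, with a median difference of -0.11. Besides the adhesion molecule and intelectin-2, both zonadhesin-like probes (L12_54131 and L12_46270) were higher in AI, by 3.24 (SE 1.01) and 2.79 (SE 0.99). A second probe named after the adhesion molecule (L2_58537) was higher in MI, with a difference of -1.62 (SE 0.55), and beta-galactoside-binding lectin (L12_50449) as well, with -0.67 (SE 0.22).

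Bile acid genes differed in both directions. Bile salt export pump (L1_72488), which in mammals empties bile salts from liver cells, had -0.17 to 1.23 in the AI arrays other than AI2 and -6.60 in AI2, against -8.77 to -3.65 in the MI arrays other than MI7 and 0.85 in MI7. Its difference was 5.55 (SE 1.41, adjusted p = 0.19, and 0.00973 without AI2). It was well above background on 7 of 8 AI and 3 of 7 MI arrays, so that it passed the filter through AI. The ileal sodium/bile acid cotransporter (L2_88118), the uptake carrier upstream of gastrotropin, had -8.91 to 3.23 in AI (median -6.54) and -6.18 to 2.73 in MI (median -0.52), with AI2 as the highest of AI and MI7 as the lowest of MI. G-protein coupled bile acid receptor 1 (L1_26329) differed by 0.08 (SE 0.17) and bile acid-CoA:amino acid N-acyltransferase (L12_89171), which conjugates bile acids, by 0.34 (SE 0.17).

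Of the 4 tested genes of vitamin B12 and protein uptake, only gastric intrinsic factor-like (L12_84721), the carrier of the vitamin in the gut lumen, reached an unadjusted p under 0.05. It had -5.73 to -1.72 in the AI arrays other than AI2 and 4.68 in AI2, against 1.24 to 3.09 in the MI arrays other than MI7 and -1.70 in MI7, and the difference was -3.72 (SE 1.16, adjusted p = 0.23, and 0.00614 without AI2). All 4 had higher levels in PI, with 5.66 to 7.44 for gastric intrinsic factor-like. Transcobalamin-2 (L12_83830), which carries the vitamin in blood, had 0.97 to 1.93 in AI and 1.09 to 1.97 in MI beside 6.35 to 7.40 in PI, and low-density lipoprotein receptor-related protein 2 (L2_87513), the uptake receptor megalin, -5.22 to -4.13 in AI and -5.38 to -3.71 in MI beside -0.78 to -0.22 in PI. Protein amnionless (L12_89217), which anchors the receptor of the vitamin, had -6.03 to -2.37 in AI and -6.46 to -0.72 in MI beside 5.54 to 6.73 in PI.

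Transporters of peptides and amino acids were split evenly, with 7 of 14 higher in each segment and a median difference of -0.07. Beside excitatory amino acid transporter 3 and the peptide transporter, B(0,+)-type amino acid transporter 1 (L2_89061), which takes up cystine and dibasic amino acids, had -9.06 to 3.06 in AI (median -8.14) and -7.58 to 2.81 in MI (median -4.98). It was well above background on only 2 of 8 AI and on 6 of 7 MI arrays, so the size of its difference depends on signals at background. Its difference was -3.55 (SE 1.90, adjusted p = 0.458), and AI2, MI3 (2.81), MI6 (0.65) and MI1 (-0.46) were the high arrays. Putative sodium-coupled neutral amino acid transporter 7 (L12_89954) differed by 0.35 (SE 0.15). Among 10 sugar transporters, facilitated glucose transporter member 8 (L12_86726) reached an unadjusted p under 0.05, at 0.47 (SE 0.21) in the direction of AI.

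Of 14 genes of water, ammonia and bicarbonate handling, 6 reached that p, 2 of them toward AI and 4 toward MI. Ammonium transporter Rh type B (L1_84283) had 4.11 to 6.15 in the AI arrays other than AI2 and -2.20 in AI2, against -3.73 to 5.50 in MI (median 0.80), a difference of 3.58 (SE 1.52). Electrogenic sodium bicarbonate cotransporter 1 (L1_89155) differed by 0.99 (SE 0.42). Chloride anion exchanger (L12_90171), which trades chloride for bicarbonate at the apical membrane, had -4.25 to -2.0 in the AI arrays other than AI2 and 2.98 in AI2, against -2.18 (MI7), -1.28 (MI5) and -0.40 to 2.02 in the other MI arrays. Its difference was -2.52 (SE 0.93, adjusted p = 0.273). Mitochondrial carbonic anhydrase 5B (L2_77736) and aquaporin FA-CHIP (L4_71738), a water channel, were also higher in MI, with differences of -1.19 (SE 0.42) and -1.50 (SE 0.59).

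In the list of hormone and endocrine cell genes, all tested members other than glucagon-1 had higher means in AI, 10 of 11. An unadjusted p under 0.05 was reached by 3 of these. Tryptophan 5-hydroxylase 2, the enzyme of serotonin synthesis given above, is not in this list and was higher in MI, with -0.95 (SE 0.22). Gastrin (L1_32270), which stimulates acid secretion, had 4.47 to 5.25 in the AI arrays other than AI2 and -0.31 in AI2, and 0.54 to 4.92 in MI (median 1.74). MI7 (4.92) lay among the AI arrays, and AI2 below every MI array. The difference was 2.05 (SE 0.81, adjusted p = 0.303, and 0.0129 without AI2). Neuromedin-B-like (L1_44416) differed by 2.36 (SE 0.86) and pro-neuropeptide Y (L4_40445) by 1.79 (SE 0.84), with AI2 as the lowest AI array and MI7 as the highest MI array in both. Peptide Y (L4_39425) had the same outermost arrays, with 4.90 to 7.18 in the AI arrays other than AI2, -0.66 in AI2 and 0.92 to 7.11 in MI (median 3.0), and a difference of 1.84 (SE 1.16, unadjusted p = 0.133). Pro-neuropeptide Y was well above background on 7 of 8 AI and 4 of 7 MI arrays. It passed the filter through AI, and the size of its difference depends on MI signals at background. Secretogranin-3 (L12_86685), a general granule protein of endocrine cells, had 0.42 to 1.46 in AI (median 1.09) and 0.40 to 1.34 in MI (median 0.71), a difference of 0.23 (SE 0.18).

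Position genes differed in both directions. Hox-A3a (L12_84463) and Hox-A4 (L12_74308) were higher in AI than in MI, by 0.74 (SE 0.23) and 0.44 (SE 0.16), and AI2 was the highest of all 15 arrays in both. Without AI2 the differences were 0.60 and 0.35. Levels in PI were -2.73 to -2.23 for Hox-A3a and -1.76 to -1.05 for Hox-A4, above all MI arrays and all AI arrays other than AI2. Hox-A9 (L12_47668) and Hox-D9a (L2_44506) were higher in MI, with differences of -1.86 (SE 0.76) and -1.72 (SE 0.73), and here too AI2 was the highest array. Hox-C4a (L1_32385) and Hox-C4 (L2_57621) also had differences of -1.28 (SE 0.43) and -1.09 (SE 0.37), and MI7 was the lowest MI array in both. Hox-A9 had -4.14 to -2.85 in the AI arrays other than AI2 and 1.75 in AI2, against -2.92 to 0.14 in MI (median -0.59). Pancreas/duodenum homeobox protein 1-like (L1_39193), a factor of the foregut, had -2.66 to -1.66 in AI (median -2.23) and -3.16 to -2.42 in MI (median -2.78), with AI2 (-2.53) and MI7 (-2.60) close together, and a difference of 0.65 (SE 0.17, adjusted p = 0.211). Of the 22 genes tested in this list, 7 reached an unadjusted p under 0.05, 3 of them toward AI and 4 toward MI.

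Of 25 extracellular matrix genes, 8 had higher means in AI and 17 in MI, with a median difference of -0.52. An unadjusted p under 0.05 was reached by 1 toward AI and by 10 toward MI, and 6 were called without AI2, all higher in MI, beside 2.86% of all probes and 4.93% of the named ones called in that direction. Decorin (L12_88440), a proteoglycan that binds collagen fibrils, had 0.34 to 1.31 in AI (median 0.69) and 1.05 to 1.62 in MI (median 1.43). AI2 (1.31) was the only AI array above MI7 (1.05) and MI5 (1.21). Its difference was -0.66 (SE 0.15, adjusted p = 0.166, and 0.00728 without AI2). Both chains of type I collagen, alpha-1 (L12_87215) and alpha-2 (L12_89873), had differences of -0.68 (SE 0.20) and -0.59 (SE 0.18), fibronectin (L1_35298) of -0.73 (SE 0.24) and matrix Gla protein (L3_59336) of -0.63 (SE 0.21). SPARC-related modular calcium-binding protein 2 (L12_74109), a secreted matrix protein, had -8.34 to -6.00 in AI (median -7.24), with 2 of 8 arrays well above background, and -6.12 to -5.60 in MI (median -6.07), with 5 of 7. It just passed the filter of 7 arrays, mainly through MI, and the size of its difference depends on signals at background. It is counted among the 10 toward MI and the 6 called without AI2.

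The smooth muscle list had a like median of -0.51, with differences of -0.77 to 0.43. Of its 10 members, 2 had higher means in AI and 8 in MI. An unadjusted p under 0.05 was reached by 4, all toward MI. Myosin regulatory light polypeptide 9 (L12_86177) and smoothelin-like protein 1 (L12_77032), both of contraction, had differences of -0.61 (SE 0.23) and -0.65 (SE 0.24), and synaptopodin-2-like (L2_5367) and tropomyosin alpha-1 (L3_61825) of -0.77 (SE 0.32) and -0.59 (SE 0.27). The summed signal of the matrix list was 7.34 to 7.75 in the AI arrays other than AI2, 8.38 in AI2, and 7.85 to 8.56 in MI, so that AI2 alone lay within MI. The summed signal of the smooth muscle list was 5.39 to 6.35 in AI and 5.69 to 6.65 in MI, AI8 and MI7 being the highest of their segments. This sum follows the members of highest signal. In the 4 smooth muscle genes named above MI7 was instead the lowest MI array, with 3.95 for myosin regulatory light polypeptide 9. The part of these lists in the other differences was not tested.

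**Figure D5:**
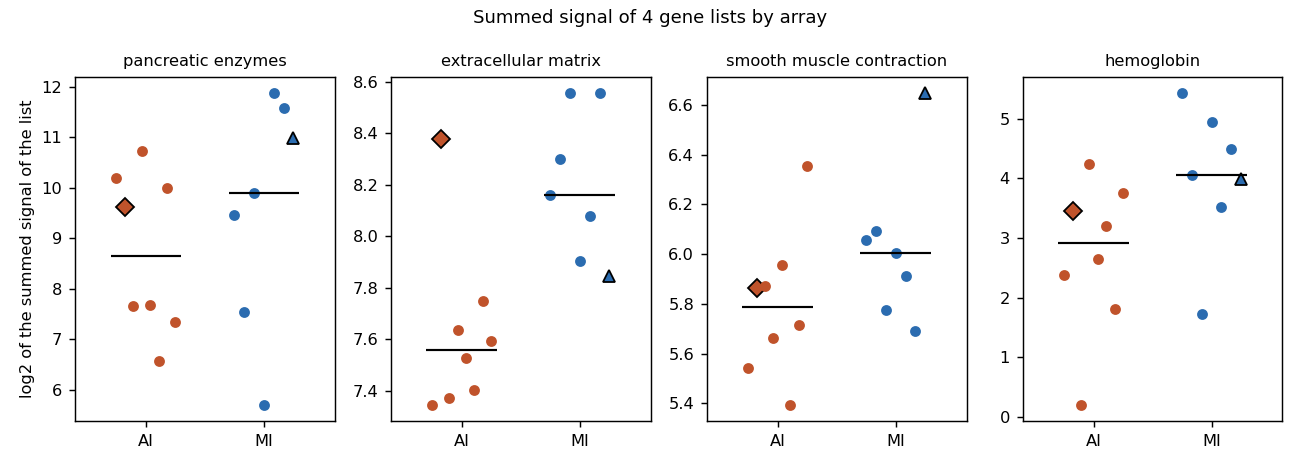
Log2 of the summed signal of 4 gene lists (vertical axes) on each AI and MI array, with the median of each segment as a line; the diamond marks AI2 and the triangle MI7. Pancreatic enzymes vary from 6.57 to 10.72 among AI arrays and from 5.70 to 11.88 among MI arrays, and in the extracellular matrix list AI2 (8.38) lies above the other AI arrays.

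Blood and immune cell lists had negative medians, with some members in the other direction. All 3 hemoglobin genes had higher means in MI at an unadjusted p under 0.05, with differences of -0.59 (SE 0.24) for subunit alpha-D (L3_78520), -0.74 (SE 0.30) for subunit beta (L3_35102) and -1.42 (SE 0.66) for subunit beta-2 (L12_90258), and none was called without AI2. Their summed signal was 0.20 to 4.25 in AI (median 2.92) and 1.72 to 5.44 in MI (median 4.05). Of 15 T cell and cytotoxic cell genes, 4 had higher means in AI and 11 in MI, with differences of -1.06 to 0.46. None reached that p toward AI and 3 did so toward MI, CD4 (L4_86612), a coreceptor of helper T cells, with -0.98 (SE 0.39), CD3 gamma/delta (L4_71171) with -0.55 (SE 0.25) and granzyme B (L12_76315), a protease of cytotoxic granules, with -0.55 (SE 0.21). Of 12 granulocyte and phagocyte genes, 2 had higher means in AI and 10 in MI, with differences of -1.26 to 0.36. The 2 past that p were both toward MI, beside 10.8% of all named probes. Cytochrome b-245 light chain (L12_83075), a part of the phagocyte oxidase, had -0.95 (SE 0.35) and myeloperoxidase-like (L1_21941) -0.58 (SE 0.27). All 17 tested B cell genes had lower means in AI, none at that p, with a median of -0.61. CD79b (L12_72056) and the alpha chain of the B cell receptor complex (L12_82586) were highest in MI3, at 0.40 and 3.65.

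Pancreatic enzymes varied widely within both segments. The 16 tested members had a median difference of -2.32, toward MI, but none reached an unadjusted p under 0.05. Chymotrypsin-C (L12_59715) had -2.14 to 7.43 in AI (median 3.70) and -0.88 to 9.02 in MI (median 6.55), a difference of -2.58 (SE 1.85, adjusted p = 0.592). AI3, AI5, AI6, AI8, MI2 and MI4 were low, and AI2 (6.24) and MI7 (7.74) were among the high arrays of both segments. Carboxypeptidase A2 (L12_88460) had the same low arrays, with -3.84 to 4.51 in AI and -3.56 to 6.41 in MI. The summed signal of the list was 6.57 to 10.72 in AI and 5.70 to 11.88 in MI, and its part in the other differences was not tested. Pepsin A (L12_87775), the protease of the stomach, had 3.40 to 5.36 in AI (median 4.49) and 4.03 to 7.34 in MI (median 5.82), a difference of -1.46 (SE 0.44, adjusted p = 0.218), beside -8.79 to -1.16 in PI. Acidic mammalian chitinase (L1_86990) had 8.04 to 8.74 in the AI arrays other than AI2 and 1.70 in AI2, and 5.97 to 8.32 in the MI arrays other than MI3 and 0.27 in MI3. These 2 arrays lay between both segments and PI, which had -9.10 to -6.72.

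Other lists held few members past an unadjusted p of 0.05. Of 20 genes of xenobiotic metabolism, cytochromes P450 3A27 (L12_88214) and 4V2 (L12_89669) were higher in AI by 0.88 (SE 0.28) and 0.67 (SE 0.23), and 4A12A (L1_47674) was higher in MI with -0.98 (SE 0.40). Of 21 lysosomal proteases and endosome sorting genes, pro-cathepsin H (L3_75092) and sorting nexin-18 (L12_85491) were higher in MI, with -0.37 (SE 0.13) and -0.53 (SE 0.19). No antimicrobial gene reached that p among 13, with 0.65 (SE 0.37) for liver-expressed antimicrobial peptide 2-like (L12_73806) and -1.36 (SE 0.84) for beta-defensin (L2_17762), and no gene of dividing cells among 9, with 0.69 (SE 0.38) for thymidylate synthase (L3_82996), which makes the thymine nucleotide for DNA.

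In 8 of the 12605 probes the segments did not overlap on any of the 15 arrays, 6 with all AI arrays above all MI arrays (0.0476%) and 2 with all MI arrays above (0.0159%). Without AI2 these numbers were 54 and 73. A hypothetical protein (LOC100486905, L12_86261) had 1.22 to 1.79 in AI (median 1.31) and 0.69 to 1.17 in MI (median 0.93), and its difference was 0.45 (SE 0.12, adjusted p = 0.195). Of the unnamed ones, L3_59623 had -0.96 to 0.02 in AI (median -0.56) and 0.08 to 0.86 in MI (median 0.36), a difference of -0.93 (SE 0.16, adjusted p = 0.0919), and L12_84460 one of -0.56 (SE 0.12, adjusted p = 0.138). L12_86365 was higher in AI by 0.45 (SE 0.11, adjusted p = 0.176). These 4 were chosen after their values were seen, and in each of them AI2 and MI7 lay on the side of their own segment, as the absence of overlap requires.

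The arrays lay on 3 slides, each with both segments. Within the slide of AI1 to AI3 and MI1 to MI3, 306 probes reached an unadjusted p under 0.05, within that of AI4 to AI6, MI4 and MI5 794, and within that of AI7, AI8, MI6 and MI7 421, and none was called. With slide as a block 1898 probes reached that p and none was called. The last slide was scanned in a session of its own.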

How the data were processed

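Each array held RNA of 1 intestinal segment, amplified and Cy3-labelled, on an Agilent array of the study's own design. The authors extracted signal intensity values with Agilent Feature Extraction (version 11.5.1.1 per the submitters' processing notes) and deposited the scanner output with a table of normalized log2 values. That deposited log2 table served as an alternative. Over probes it correlated at 0.9988 to 0.9999 with the values used here, its column medians were -0.07 to 0.08, and no source used here gives its exact centring. The table held 0 columns of other samples.

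From the processed signal intensity of the deposited files, control spots and spots that the scanner software marked as outliers were left out, and each log2 value was set relative to the array's 75th percentile. Testing covered the 12605 probes that 7 or more of the 15 AI and MI arrays measured well above background, with limma 3.58.1 (lmFit and eBayes, R 4.3.3) on the 15 arrays alone, as AI minus MI, with Benjamini-Hochberg adjustment over all of them and a threshold of 0.05. Python 3.11.15, numpy 2.4.6 and pandas 2.3.3 were used for the summaries. Tested on simulated data for this comparison with 12499 probes, the fit made 9 wrong calls and found 64 of 100 probes given a shift of 1 on the log2 scale and 93 of 100 given a shift of 2. The simulated noise was independent between probes and arrays, and no simulated array departed from its segment. These counts therefore check the fit and do not give its power on the real arrays.

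Gene names came from the study's supplementary list, which holds 3652 of the 14147 probes, and none of its folds was used. Genes were named by rule: the 12 of smallest p and the 5 of largest difference in each direction, up to 4 members of each of 24 gene lists, and further members of lists described as a group. One gene that the rule gives is not reported here. The comparison and the lists were chosen with earlier results of these data known. For a probe that no array of a segment measured well above background, the fold was computed against a limit. This limit was the higher, on each array, of the probe's signal and the lowest signal well above background. Precision is limited by how many arrays there are. The alternatives tried were other normalizations, background corrections, filters, floors, priors, array weights, blocks, the methods' t-test and leaving out each array. The PI arrays entered no test.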

Additional observations from a re-analysis of the deposited data

Results flagged for a closer look

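In each segment, the array farthest from its fellows was compared with the range of the segment for every gene named in the report and for the position score. Of 220 groups of arrays tested in this way, 49 held an array that stood apart by Dixon's criterion, which chance alone gives in about 1 group of 20. AI2 was that array in 38 of them, MI7 in 7, MI3 in 3 and AI6 in 1. The genes were named partly for their difference between the segments, and many of them vary together, so the 49 are not independent of each other.

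AI2 had a position of -0.14 between the segments, against 0.86 to 1.40 in the other AI arrays. It lay below all other AI arrays in 20 genes. It had 0.43 for uncharacterized protein LOC100002243 (L1_41991), -0.89 for alkaline phosphatase, tissue-nonspecific isozyme (L1_77244), -2.59 for complement factor B (L12_88845) and 6.06 for membrane primary amine oxidase (L12_89917). It also had -6.60 for bile salt export pump (L1_72488), -4.96 for apolipoprotein Eb (L3_81365), -1.93 for lathosterol oxidase (L1_52395) and -2.43 for 7-dehydrocholesterol reductase (L12_72066). Further values were -4.22 for zonadhesin-like (L12_54131), -3.30 for zinc transporter ZIP4 (L1_42684), -0.12 for zinc transporter ZIP8 (L12_85588) and -2.65 for zinc transporter ZIP4-like (L12_68504). There were also -0.93 for neuromedin-B-like (L1_44416), -0.31 for gastrin (L1_32270), -7.64 for pro-neuropeptide Y (L4_40445) and 1.70 for acidic mammalian chitinase (L1_86990). Other values were -2.72 for thymidylate synthase (L3_82996), -2.20 for ammonium transporter Rh type B (L1_84283), -0.66 for peptide Y (L4_39425) and -5.05 for zonadhesin-like (L12_46270).

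AI2 lay above all other AI arrays in 17 genes. Its values were -3.72 for alcohol dehydrogenase A (L12_80932), 5.52 for excitatory amino acid transporter 3 (L2_89236) and 6.98 for transmembrane and immunoglobulin domain-containing protein 1 (L2_79144). There also were 4.60 for collectrin (L2_64229), 3.22 for solute carrier family 15 member 2 (L2_89755), 6.28 for gamma-glutamyltranspeptidase 1 (L12_89467) and 3.23 for ileal sodium/bile acid cotransporter (L2_88118). Next came 4.68 for gastric intrinsic factor-like (L12_84721), -2.37 for protein amnionless (L12_89217), 3.06 for B(0,+)-type amino acid transporter 1 (L2_89061) and 2.98 for chloride anion exchanger (L12_90171). Then came -2.99 for homeobox protein Hox-C4a (L1_32385), -1.33 for homeobox protein Hox-C4 (L2_57621), 0.89 for cytochrome b-245 light chain (L12_83075) and 1.75 for homeobox protein Hox-A9 (L12_47668). Last came -0.79 for homeobox protein Hox-D9a (L2_44506) and -2.90 for the second carcinoembryonic antigen-related probe (L2_58537).

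MI7 stood above the other MI arrays with 2.07 for intelectin-2 (L1_88128), 6.90 for uncharacterized protein LOC100002243 (L1_41991) and -4.72 for beta-2-glycoprotein 1-like (L1_21520). It was also above them with 0.14 for zinc transporter ZIP4-like (L12_68504) and 5.17 for cytochrome P450 3A27 (L12_88214). It stood below them with -1.70 for gastric intrinsic factor-like (L12_84721) and 2.01 for smoothelin-like protein 1 (L12_77032). MI3 was above the other MI arrays with 1.13 for sulfate transporter (L2_63919) and 0.40 for CD79b (L12_72056), and below them with 0.27 for acidic mammalian chitinase (L1_86990). AI6 was below the other AI arrays with 3.72 for pro-cathepsin H (L3_75092). The reason for these values was not tested.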

How the results depend on the processing

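No probe was called in limma with all 15 arrays, nor under quantile normalization, normexp on the median signals, either other filter, a floor, the deposited table, the methods' t-test, other priors or slide as a block, with 1404 to 1898 probes at an unadjusted p under 0.05 against 1609. Array weights gave 480 calls, 252 of them at 2-fold or more, and 2465 probes at that unadjusted p. Leaving out 1 array gave 0 to 601 calls, 0 to 292 at 2-fold or more, and 1288 to 2551 probes at that p. Among these, calls came only without AI replicate 2 (601) or MI replicate 7 (40, of which 36 at 2-fold or more), and the other 13 gave 0. Fits within slides 1, 2 and 3, with 2 or 3 arrays a segment, gave 306, 794 and 421 probes at that p and no call. These fits and the unadjusted counts were added after the data had been seen.

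The replicate block, over the 14 arrays numbered 1 to 7, gave 2626 probes at an unadjusted p under 0.05 and no call. Deviations of arrays with the same number correlated at 0.22 to 0.43 for 6 numbers and at 0.0049 for number 6, against medians of -0.12 to -0.0090 with other numbers. Of the 7 MI arrays 5 correlated best with the AI array of their own number, MI6 with AI7 and MI7 with AI8. The AI and MI arrays of the same number shared a slide for numbers 1 to 5 and 7, and not for number 6. Shared fish and shared slide therefore cannot be told apart as sources of these correlations. If AI and MI arrays share fish, the main fit ignores it. MI6 and MI7 lay on the slide of AI7 and AI8, their best matches. Whether the MI numbers are shifted from 6 on was not tested. No source ties numbers to fish, so the arrays were compared without pairing. The block joined MI6 with AI6 and MI7 with AI7, not with the AI arrays they correlated best with. Its lack of calls therefore does not show what another pairing would give, and no other pairing was fitted.

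Of the 109 genes named, 68 were called when some array was left out and 60 with array weights. Over all 12605 probes, 4.77% were called without AI2, 0.317% without MI7 and 3.81% with array weights. The 109 were chosen partly for a small p or a large difference, so their counts only describe them. The sign turned in 3 genes, none of them called. Low-density lipoprotein receptor-related protein 2 (L2_87513, -0.05) had 0.0231 with array weights and -0.151 to 0.127 when arrays were left out, with a positive value without AI replicate 1 or 5 or MI replicate 6 or 7. Transcobalamin-2 (L12_83830, -0.02) had 0.0013 with slide as a block and -0.0892 to 0.0582 when arrays were left out, with a positive value without AI replicate 4, 5 or 6 or MI replicate 3 or 5. G-protein coupled bile acid receptor 1 (L1_26329, 0.08) had -0.0775 with normexp, -0.0013 with array weights and -0.0037 to 0.148 when arrays were left out, with a negative value without MI replicate 3. The cause was not tested. Genes well above background on few arrays of a segment have imprecise levels there.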
